A study of Mus musculus with 86 samples.

Results

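The spleen of 129SvJ/Iso mice heterozygous for Dll1 was compared with the spleen of wild-type mice of the same strain. The comparison holds all arrays that the labels assign to spleen RNA of this strain, which are 15 of the 86 arrays of the series, and they come from 5 heterozygous mice. Mouse 1 and mouse 2 had 2 arrays each, mouse 3 and mouse 4 had 4 and mouse 5 had 3, with heterozygous RNA in Cy3 on some and in Cy5 on others for every mouse. All mice were male and 16 weeks old. The heterozygotes, written Dll1 +/- in the labels, carried a targeted allele in which an inserted lacZ reporter disrupts the Dll1 coding sequence. This allele is carried in the germline, so every cell type of the spleen has it. The other channel of every array held 1 pool of wild-type spleen RNA, for which the labels list 4 mice while their protocol text speaks of a pool of another size. The study's methods give the strain a different substrain name from the labels, and the study calls the background of that name non-isogenic. C3H spleen, the closest other experiment, had 9 arrays from 5 male Dll1 +/- mice of 15 weeks against a C3H wild-type pool of its own. C3H mouse 1 had 1 array, with heterozygous RNA in Cy3, and the other C3H mice had both dye orientations.

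Dll1 is a Delta ligand on the cell surface. It binds Notch receptors on the neighbouring cell, gamma-secretase then cuts the receptor, and the freed intracellular part joins Rbpj and Mastermind in the nucleus to switch on targets such as the Hes and Hey repressors. In the mouse spleen, Dll1 on stromal cells acts through Notch2 on B cells and is known for its role in forming marginal zone B cells. The adult mouse spleen also makes blood cells: it holds erythroid precursors, granulocyte precursors and megakaryocytes beside stored platelets and lymphocytes. In RNA of a whole organ, fewer cells of a type and less RNA per cell cannot be told apart.

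Each deposited value is a log2 ratio on 1 array, read here as heterozygous over wild type. A value of 1 would be a doubling. The direction is likely and not settled. On 86 of 86 arrays the single extreme value of the array was above 0 with heterozygous RNA in Cy5 and below 0 with it in Cy3, which is how ratios turned for the dye would look, whereas the genotype in the numerator is not named by the labels. Values with the sign of the Cy5 arrays turned are also given, as they would stand had the ratios not been turned for the dye. In that case their common sign would still be open. If the deposited ratios were wild type over heterozygous, every value would change sign, which the turned values do not test. All ratios carry no level, so the labelled tissue could not be checked by the level of its markers. All 15 arrays share the wild-type pool, so a difference between that pool and wild-type spleen in general would be on all of them and cannot be told apart from the genotype.

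The 129SvJ/Iso spleen arrays carried less usable signal than those of C3H spleen. Of 20794 probes, between 14063 and 16677 had a usable value per array, and 19.8% to 32.4% were blank or at the extreme value, against 3.23% to 18.3% in C3H. Between 7.18% and 20.4% of the values were exact ratios of whole numbers up to 5, as spots of very low signal would give, against 2.75% to 9.78% in C3H. Arrays of 1 mouse in the same dye orientation had a Spearman correlation across probes of 0.06 to 0.14 in 5 pairs, and those of opposite orientation −0.13 to 0.06 in 12 pairs, with a median of 0.0013. For pairs from different mice the median was 0.039 in the same orientation and −0.029 in opposite orientations. Between the means of 2 mice it was −0.02 to 0.08 in 10 pairs. Probes are not independent replicates, and pairs of arrays share the pool. Of 404 genes with several probes measured in all 5 mice, the pair of probes with the smallest p lay on the same side of 0 in 229.

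Across the whole array 15630 probes had a value in at least 3 mice, and none passed limma at an adjusted p under 0.05 (0%, smallest adjusted p = 0.916). An unadjusted limma p under 0.05 was reached by 747 probes (4.78%), of which 379 lay above 0 (2.42%) and 368 below (2.35%). The mean ratio was above 0 for 7605 probes (48.7%). Of the 5943 probes measured in all 5 mice, 239 lay above 0 in every mouse (4.02%) and 183 below 0 in every mouse (3.08%). The spread of the mice was wide, with a median SD of 0.71 per probe against 0.46 in C3H spleen. In simulated ratios with this spread and 15630 probes, the same fit recovered 8 of 67 changes of log2 size 1, 48 of 67 of size 2 and 65 of 66 of size 3. It also called 5 unchanged probes. The changes were planted together, all in probes with 5 mice, which eases the adjusted threshold. These shares therefore do not hold for a change that stands alone or for probes with fewer mice. In what follows, a mean log2 ratio is given ± SD over 5 mice, and n is stated where fewer mice had a value. The adjusted p of each gene named was 0.916 or higher in this fit.

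For Dll1 itself, neither of its probes showed a difference beyond the spread. Probe 5 had values in 3 mice, which were −0.78, 0.35 and −0.99 in mouse 3, 4 and 5, with a mean of −0.47 ± 0.72 (n = 3). On its 10 arrays it ranged from −3.99 to 2.64 and lay above 0 on 5. Probe 20289 had 0.51, −0.14 and −0.51 in mouse 2, 4 and 5, with a mean of −0.05 ± 0.52 (n = 3). Their limma p was 0.292 and 0.901. With the sign of the Cy5 arrays turned, the means were 0.96 and 0.48. Whether these probes match sequence upstream or downstream of the lacZ insertion is unknown here, so neither the genotype nor the direction can be checked with them.

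Ppbp and Pf4, both platelet genes, had the smallest p of all tested probes, and Itga2b was the third among probes with values in all 5 mice. Several probes measured in fewer mice, such as Aqp8, had a smaller p than Clec1b. So did other probes with all 5 mice, among them Tnfaip3, Gstk1, Adamts4, F10 and Slc25a30. Clec1b is given here because it is also a platelet gene, although it is not a member of the wider list described below. Ppbp, which encodes the platelet chemokine precursor pro-platelet basic protein, had 1.58, 1.62, 3.23, 2.94 and 1.83 in mouse 1 to 5. Its mean was 2.24 ± 0.78, or 4.72-fold, the highest mean of all 15630 probes and the smallest limma p of all (p = 0.000172). Pf4, platelet factor 4, is a chemokine of the same granules. It had 1.53, 1.29, 3.07, 1.67 and 2.01, with a mean of 1.92 ± 0.70, or 3.77-fold (limma p = 0.000318). Itga2b, the alpha chain of the fibrinogen receptor of platelets and a marker of megakaryocytes, had 0.55, 1.02, 2.07, 1.65 and 1.83, with a mean of 1.43 ± 0.62, or 2.69-fold (limma p = 0.00146). These 3 genes lay above 0 in 5 of 5 mice, with mouse 3 the highest in all of them. Clec1b, the platelet receptor for podoplanin, had 0.22, 1.33, 1.83, 0.90 and 3.20, with a mean of 1.49 ± 1.12, or 2.82-fold (limma p = 0.0079), and here mouse 5 was the highest. An exact sign-flip test over the 5 mice gave a two-sided p of 0.0625 for each of the 4 genes, the smallest that 5 mice allow. Any gene with all 5 mice on one side gets this p, and these genes were picked with their values known. It therefore adds nothing to the values above.

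The promoters of these 4 genes are shown because all of them are platelet genes with every mouse above 0, a grouping made after the values were seen. All 4 were matched by symbol in RefSeq (build GRCm38.p6), and each window of 300 bases lies mostly before the annotated start of transcription and ends 50 bases after it. Capitals mark matches to either of a pair of motifs, searched on both strands. The letters bound by GATA factors such as Gata1 were taken as AGATAA or AGATAG, and likewise TGATAA and also TGATAG. The core bound by ETS factors was taken as GGAAGT, which reads ACTTCC where it lies on the opposite strand. The motifs do not overlap each other.
Ppbp: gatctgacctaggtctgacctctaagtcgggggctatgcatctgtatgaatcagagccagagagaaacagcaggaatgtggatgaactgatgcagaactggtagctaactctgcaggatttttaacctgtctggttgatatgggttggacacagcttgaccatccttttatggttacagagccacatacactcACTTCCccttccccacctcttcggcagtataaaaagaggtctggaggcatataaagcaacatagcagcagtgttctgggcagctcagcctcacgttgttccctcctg
Pf4: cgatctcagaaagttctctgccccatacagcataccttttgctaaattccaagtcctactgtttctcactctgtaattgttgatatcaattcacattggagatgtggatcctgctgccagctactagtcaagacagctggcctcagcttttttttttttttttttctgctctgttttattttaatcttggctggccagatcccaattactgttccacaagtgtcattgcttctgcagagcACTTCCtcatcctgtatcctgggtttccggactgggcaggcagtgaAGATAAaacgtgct
Itga2b: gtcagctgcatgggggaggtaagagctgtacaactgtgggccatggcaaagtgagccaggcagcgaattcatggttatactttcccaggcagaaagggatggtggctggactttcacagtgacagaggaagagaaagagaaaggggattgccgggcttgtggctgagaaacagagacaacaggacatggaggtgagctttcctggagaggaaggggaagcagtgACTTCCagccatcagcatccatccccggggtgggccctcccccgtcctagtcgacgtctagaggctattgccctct
Clec1b: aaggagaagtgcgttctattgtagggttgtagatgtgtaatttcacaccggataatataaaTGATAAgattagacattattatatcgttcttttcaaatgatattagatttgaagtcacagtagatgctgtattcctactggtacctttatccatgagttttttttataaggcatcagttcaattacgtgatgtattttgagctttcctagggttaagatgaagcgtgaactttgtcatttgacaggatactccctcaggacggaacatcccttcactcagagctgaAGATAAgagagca
The Ppbp window is chr5:90768268-90768567 on the plus strand and the Pf4 window chr5:90772185-90772484 on the plus strand, 3917 bases further on. The Itga2b window is chr11:102469834-102470133 on the minus strand and the Clec1b window chr6:129397047-129397346 on the plus strand. The ETS letters began at −57 in Ppbp, −10 in Pf4 and −26 in Itga2b, counted from the start of transcription, and were not found in the Clec1b window. The GATA letters began at 37 in Pf4 and at −189 and 38 in Clec1b. The GATA letters occur in 29.8% and the ETS letters in 23.8% of all 32851 promoter windows of this length, so single matches of this kind are common.

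Array by array, the first 3 of these genes stayed on one side. Ppbp lay above 0 on 15 of 15 arrays, with values from 1.47 to 3.76 and a median of 2.52. Pf4 did so with 0.70 to 4.42 and a median of 1.89, and Itga2b with 0.40 to 2.94 and a median of 1.59. Both dye orientations gave the same sign, with a mean of 2.38 over the Cy3 arrays and 2.47 over the Cy5 arrays for Ppbp. Clec1b lay above 0 on 11 of 13 arrays. Of the 2861 probes with a value on all 15 arrays, 9 lay above 0 on every array (0.315%) and 1 lay below 0 on every array (0.035%).

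**Figure D1:**
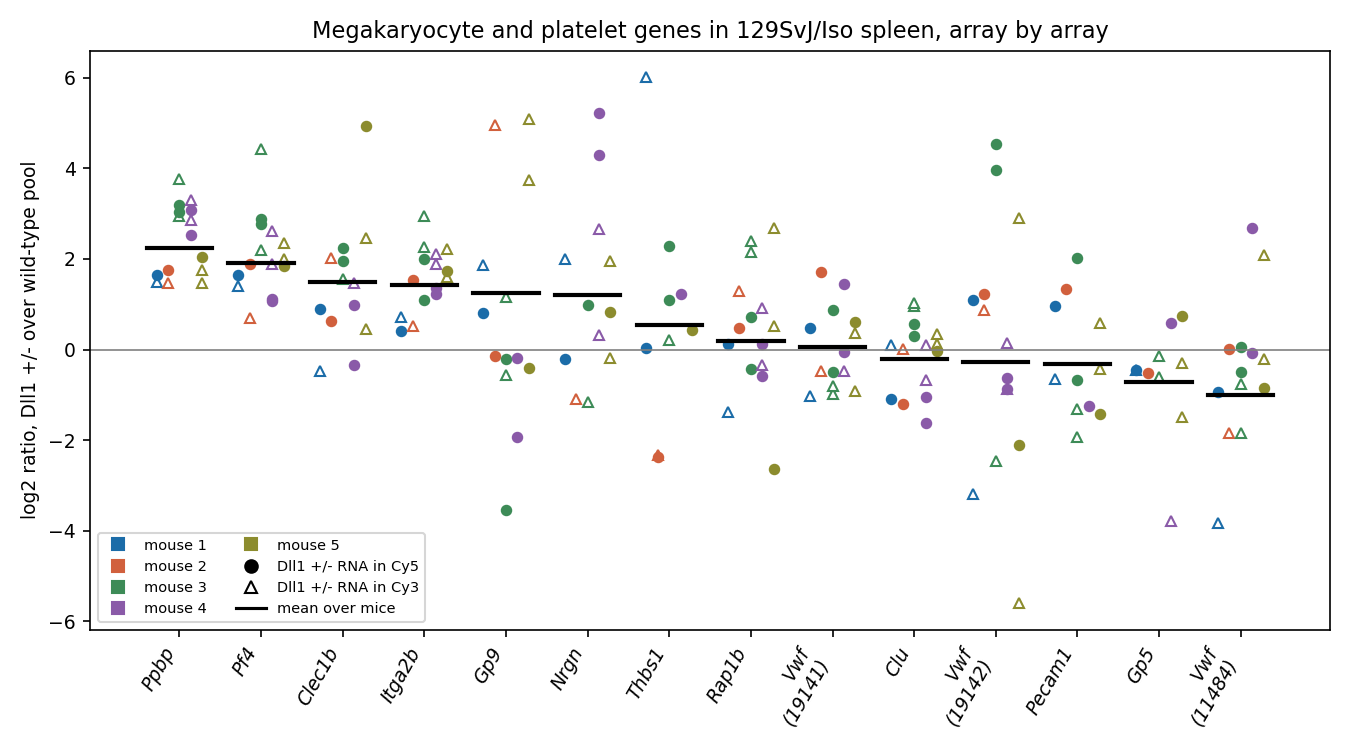
Log2 ratio of heterozygous over wild-type spleen (y axis) for 14 probes of platelet and megakaryocyte genes (x axis), 1 symbol per array, coloured by mouse, circles for heterozygous RNA in Cy5 and triangles for Cy3, bars for the mean over mice. Ppbp, Pf4 and Itga2b lie above 0 on 15 of 15 arrays, while most other genes of the list spread on both sides of 0.

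A fit over all 15 arrays, with a term for the dye and the mouse as a random block, called 4 of 15630 probes at an adjusted p under 0.05 (0.0256%). They were Ppbp (log2 ratio 2.41, limma adjusted p = 0.000155), Pf4 (2.04, limma adjusted p = 0.00333), Itga2b (1.55, limma adjusted p = 0.00653) and probe 2774, which has no gene name here (0.92, limma adjusted p = 0.0349). The estimated correlation between arrays of 1 mouse was 0.027, so this fit treats repeat arrays of a mouse almost as separate mice and its p-values are smaller than the 5 mice alone would give. With a variance trend over the number of arrays and robust shrinkage, the fit on mouse means called Ppbp (limma adjusted p = 0.021) and Pf4 (limma adjusted p = 0.0243). That covariate was chosen after seeing the data, and with the trend on the size of the mean instead 0 probes were called by limma, adjusted or unadjusted. The size of the mean is the tested effect itself, so that fit cannot decide about these calls. Leaving out any 1 mouse kept the mean of Ppbp between 1.99 and 2.41, that of Pf4 between 1.63 and 2.07 and that of Itga2b between 1.26 and 1.64. With the sign of the Cy5 arrays turned, the means became −0.04 for Ppbp, 0.05 for Pf4, 0.12 for Itga2b and −0.28 for Clec1b, so these values depend on the ratios having been turned for the dye before deposit.

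The wider list of megakaryocyte and platelet genes showed no common side. Of its 13 tested probes, from 11 genes, 8 lay above 0 and 5 below, with a median of 0.19 beside −0.01 over all tested probes. Those with an unadjusted limma p under 0.05 were the 3 genes above, all above 0. Gp9, part of the receptor for von Willebrand factor, had 1.24 ± 1.42 (n = 4) and lay above 0 in 3 mice. Gp5, of the same receptor, had −0.71 ± 0.79 (n = 3) and lay below 0 in each. Von Willebrand factor itself (Vwf), also made by endothelium, had −1.004 ± 1.01 (n = 4), 0.05 ± 0.39 and −0.28 ± 1.21 by its probes. Nrgn had 1.20 ± 1.36 (n = 4), Thbs1, the platelet granule protein thrombospondin, 0.54 ± 2.71 (n = 3) and the small GTPase Rap1b 0.19 ± 0.83. The list median was 0.16, 0.96, 0.81, 0.11 and 0.13 in mouse 1 to 5. It moved to 0.80 without mouse 1 and lay between −0.04 and 0.80 over the fits that left out 1 mouse.

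In C3H spleen the same probes lay closer to 0. These genes were picked for a small p in the 129SvJ/Iso mice, so that they lie closer to 0 in C3H follows in part from the choice. Pf4 had −0.04 to 0.85 in 5 C3H mice, with a mean of 0.42 ± 0.32. The difference, C3H minus 129SvJ/Iso, was −1.49 ± 0.36 (SE), with a limma adjusted p of 0.541. Itga2b had −0.09 ± 0.49 in C3H (n = 3) and a difference of −1.52 ± 0.43 (SE, limma adjusted p = 0.604). Ppbp had −0.50 and 0.44 in the 2 C3H mice with a value, too few for a test, and Clec1b had no usable value there. In liver of the 129SvJ/Iso heterozygotes, against a pool of liver RNA, Pf4 had 0.46 ± 0.71, Itga2b 0.05 ± 0.75 and Clec1b 0.20 ± 0.77 (n = 4 each), and Ppbp −0.58 and 1.26 in 2 mice. In their brain Pf4 had −0.15 ± 0.52, Itga2b −0.16 ± 0.39 (n = 4 each), Ppbp −0.63 ± 2.36 and Clec1b −0.03 ± 0.38 (n = 3 each). In 129SvJ/Iso thymus, where heterozygous RNA was pooled, Clec1b had 1.48, Ppbp 0.48, Pf4 0.43 and Itga2b −0.25. Gp9 lay above 0 in every mouse measured in 129SvJ/Iso liver (0.26 ± 0.17, n = 3) and brain (0.59 ± 0.39, n = 4). Its means in C3H organs lay between −0.16 and −0.08. The difference between the organs was not tested here.

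Mpo, the granule enzyme of neutrophil precursors, was also among the 12 genes with the smallest p above 0 and values in all 5 mice. It had 0.84, 0.24, 1.62, 3.43 and 1.37 in mouse 1 to 5 by probe 4927, with a mean of 1.50 ± 1.20 (limma p = 0.00991) and 14 of 15 arrays above 0. Its probe 4138 gave −0.38 ± 1.13, so the probes of Mpo disagree. Gata1 and Chil3 were not among the 12. Gata1, a transcription factor of erythroid cells and megakaryocytes, had 0.41 ± 0.34, with 4 of 5 mice and 14 of 15 arrays above 0 (limma p = 0.136). In C3H spleen Gata1 had 0.36 ± 0.24 and lay above 0 in 5 of 5 mice, and the strains differed by −0.05. Chil3, a chitinase-like protein of myeloid cells, lay above 0 on 9 of 9 arrays in the fit over arrays (2.21, limma adjusted p = 0.0994). That fit treats repeat arrays of a mouse almost as separate mice.

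The remaining genes of the 12 had varied roles. Tnfaip3 (A20), which restrains NF-kappaB signalling, had 0.67, 1.27, 1.33, 1.42 and 2.49, with a mean of 1.44 ± 0.66 (limma p = 0.00163), although only 7 of its 12 arrays lay above 0. F10, coagulation factor X, had 1.44 ± 0.96, with mouse 1 (2.67) and mouse 3 (1.99) the highest. Gstk1, a mitochondrial and peroxisomal glutathione transferase, had 1.31 ± 0.79 with mouse 4 at 2.65 and the other mice between 0.66 and 1.34. Nr2f2, a nuclear receptor of venous endothelium and stroma, had 0.94 ± 0.49. C4a, a complement gene, had 0.75 ± 0.12 by probe 18346 and −0.02 ± 0.38 by its other probe. Probe 18346 had the narrowest spread over mice of the set, although its 15 arrays ran from −0.765 to 2.244. Fcgr3, a receptor for immunoglobulin G on myeloid cells, had 0.89 ± 0.47, −0.23 ± 0.82 and −0.05 ± 1.05 by its probes. In C3H spleen these probes had 0.54 ± 0.19, 0.42 ± 0.08 and 0.08 ± 0.50. Lypd1 had 1.02 ± 0.63 by one probe and −0.25 ± 0.56 by the other. These genes have p between 0.00163 and 0.0104 in limma without adjustment.

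Among the 12 genes with the smallest p below 0, Serinc3, a membrane protein, was the gene below 0 on all 15 arrays. It had −0.26, −0.17, −0.88, −2.88 and −2.76 in mouse 1 to 5, with a mean of −1.39 ± 1.33 (limma p = 0.0208), and its arrays ranged from −3.14 to −0.12. Mouse 4 and mouse 5 were thus far lower than mouse 1 and mouse 2. In 129SvJ/Iso liver Serinc3 had −1.26 ± 0.44 (n = 4) and lay below 0 in each mouse, and in 129SvJ/Iso brain it had 0.06 ± 0.23 (n = 4). In C3H it had −0.17 ± 0.29 in spleen, −0.22 ± 0.24 in thymus and 0.08 ± 0.07 in brain. C3H liver had −0.38 ± 0.16, with each mouse below 0. With the sign of the Cy5 arrays turned, the 129SvJ/Iso spleen mean was −0.01.

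The others included signalling genes of immune cells. Ncf4, the p40 subunit of the phagocyte NADPH oxidase, had −0.92, −0.41, −0.51, −1.11 and −1.50, with a mean of −0.89 ± 0.44 (limma p = 0.0097). Mapk14, the p38-alpha kinase, had −1.43 ± 1.24, with mouse 2 at −3.40 and mouse 1 at −0.39. Il17ra, a chain of the interleukin 17 receptor, had −0.68 ± 0.29, and Elf4, an ETS transcription factor of lymphocytes, had −0.71 ± 0.31 with mouse 3 at −1.26. Adamts4, a matrix protease, had −1.24 ± 0.73 and the smallest p of those below 0 (limma p = 0.00506). Efnb2, ephrin B2 of arterial endothelium, had −0.90 ± 0.69, and Slc25a30, a mitochondrial carrier, −1.04 ± 0.57. Btrc, which picks targets for ubiquitination, had −1.17 ± 1.16 by one probe and −0.06 ± 1.09 (n = 3) by the other, and Cdk19, a kinase of the Mediator complex, had −0.82 ± 0.62 by one probe but 0.47 ± 0.48 and 0.40 ± 0.40 (n = 4 each) by others. Aasdh had −1.62 ± 1.34 and Cyp2d22, a cytochrome P450, −1.22 ± 1.17 with mouse 5 above 0 at 0.25.

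**Figure D2:**
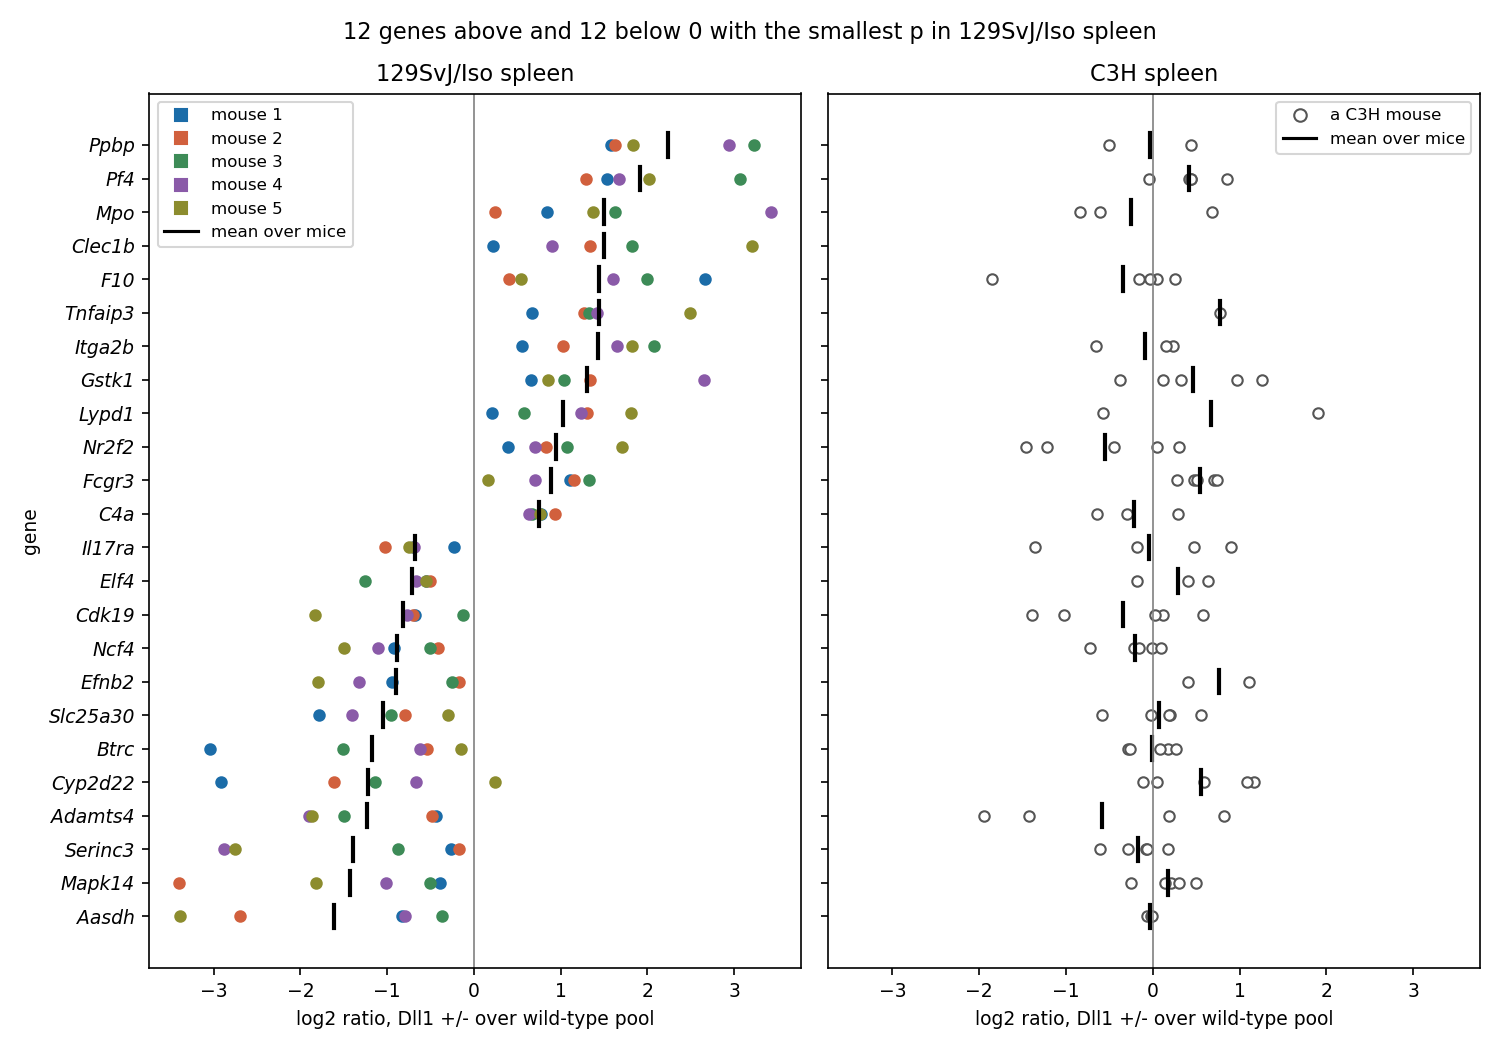
Log2 ratio of heterozygous over wild-type spleen (x axis) for the 12 genes above 0 and the 12 below 0 with the smallest p in 129SvJ/Iso (y axis), with the same probes in C3H spleen on the right, 1 point per mouse and bars for the mean. The genes were picked for the smallest p in these 129SvJ/Iso mice, so that their points lie on one side there (except mouse 5 for Cyp2d22) and less so in C3H follows from the choice.

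Few other named genes kept one sign on all 15 arrays. Ppif, the mitochondrial cyclophilin, had 0.69 ± 0.33, Usp2, a deubiquitinase, 0.33 ± 0.23 and Egfr, the receptor for epidermal growth factor, 0.32 ± 0.22, each above 0 throughout. Among the genes above 0 on 14 arrays were Emilin2 (0.88 ± 0.88), Asns, which makes asparagine (0.48 ± 0.08), and Blvra, which turns the haem product biliverdin into bilirubin (0.36 ± 0.16). Among those below 0 on 14 arrays were Ddx5, an RNA helicase (−0.41 ± 0.21), Btg1, which restrains proliferation (−0.35 ± 0.34), Scd1, a fatty acid desaturase (−0.46 ± 0.64), Wdfy2 (−0.53 ± 0.27) and Pkig, an inhibitor of protein kinase A (−0.65 ± 0.53). Other probes of some of these genes differed, with 0.07 ± 1.14 for Blvra, −0.10 ± 0.39 for Emilin2, 0.07 ± 0.53 for Ddx5 and −0.06 ± 0.44 for Pkig. These genes were picked for the sign of their arrays, so the counts are a description.

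The Notch pathway showed few differences at this precision. Of the ligands, 8 probes were tested, with 3 above and 5 below 0, and 0 had an unadjusted limma p under 0.05. Their median was −0.14, and 0.25 with the sign of the Cy5 arrays turned. Jag1 had 0.32 ± 0.48 (n = 4) and Jag2 −0.37 ± 1.39 (n = 4). Of the receptors, Notch3 had −0.66 ± 1.01, with mouse 5 above 0 at 0.64, and Notch2, the receptor that marginal zone B cells need, had 1.22, −0.73 and 0.17 in mouse 1, 3 and 5 (mean 0.22 ± 0.98, n = 3). Notch1 and Notch4 had values in fewer than 3 mice. Among the nuclear partners and targets, 5 of 12 probes lay above 0, with a median of −0.05. The target Hes1 had −0.25 ± 0.35, Hey2 0.08 ± 0.26 and Hey1 −0.66 ± 1.50 (n = 3) and 0.34 ± 1.27 (n = 4) by its probes. Maml1, the Mastermind coactivator, had −1.12 ± 1.98 (n = 4), ranging from −3.72 in mouse 1 to 0.91 in mouse 5. The coactivator Ep300 had 0.35 ± 0.33 and lay above 0 in 5 of 5 mice (limma p = 0.192).

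Genes that process and traffic Notch and its ligands lay mostly above 0, with 15 of 18 probes above and a median of 0.16 beside 48.7% of all tested probes above 0. Aph1a, a subunit of gamma-secretase, had 1.16, 1.22 and 1.60 in mouse 2, 4 and 5 (mean 1.33 ± 0.24, n = 3). It was the 1 member with an unadjusted p under 0.05 (limma p = 0.00836). Psen2, the catalytic subunit of that enzyme, had 1.04 ± 1.24 (n = 3). Mib2, a ubiquitin ligase of the ligands, had 0.54 ± 0.42 with 5 of 5 mice above 0 by one probe and 0.14 ± 0.57 (n = 3) by the other. Its relative Mib1 had 0.02 ± 1.84 with 1 of 5 mice above 0. Adam17, a protease that can shed Notch and its ligands, had −0.19, −2.03 and −0.43 in mouse 1, 3 and 4 (mean −0.88), and Lfng, which puts sugars on Notch, had 0.16 ± 0.29. The list median was below 0 in mouse 3 and mouse 4 (−0.13 and −0.12) and above 0 in the other 3, and it was 0.44 without mouse 3. Over the list it was 0.076 with the sign of the Cy5 arrays turned. Of 18 probes of Dll1 and the genes near it on chromosome 17, of which 2 are Dll1's own and both below 0, 5 lay above 0 and 13 below, with a median of −0.12 and 0 at an unadjusted limma p under 0.05. The median of these was 0.06 with the sign of the Cy5 arrays turned and 0.10 over probes measured in all 5 mice.

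B cell genes lay mostly below 0. Of 19 probes from 15 genes, 15 lay below 0 and 4 above, with a median of −0.19. Over all tested probes 48.7% lay above 0 with a median of −0.01, the background for this and each list that follows. The list median was below 0 in 4 mice (−0.87 to −0.18) and 0.11 in mouse 3. The median over probes was −0.43 without mouse 3, −0.32 without mouse 5 and −0.125 without mouse 4, and −0.092 with the sign of the Cy5 arrays turned. Cd79b, a chain of the B cell receptor, had −0.87, −1.71, −1.81 and 0.39 in mouse 1, 3, 4 and 5, with a mean of −1.002 ± 1.02 (n = 4, below 0 in 3). Ms4a1, the CD20 antigen, had −0.29, −0.89, 0.07, −0.90 and −0.54, with a mean of −0.51 ± 0.41 and 3 of 15 arrays above 0. Vpreb3, a chaperone of the immature receptor, had −0.57 ± 0.59 and was below 0 in 5 of 5 mice, though mouse 1 was barely below it. In C3H spleen Cd79b had −0.35 ± 0.21 with every mouse below 0, Ms4a1 had −0.24 ± 0.53 and Vpreb3 had 0.33 ± 0.57. The kinase Btk had −0.47 ± 0.41, the antigen Cd22 −0.35 ± 0.57 and the kinase Blk 0.19 ± 0.70. Fcrla was the 1 member with an unadjusted p under 0.05, at −0.77 ± 0.27 (n = 4) by probe 3890, and its other probe gave 0.29 ± 0.81. Of the 7 marginal zone B cell genes on the array 4 could be tested, with 2 above 0 and 2 below, among them the sphingosine phosphate receptors S1pr3 (0.62 ± 1.23, n = 4) and S1pr1 (−0.64 ± 1.24, n = 3).

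Genes of antigen presentation lay below 0 for 12 of 13 probes, with a median of −0.23, beside 48.7% of all tested probes above 0. Cd74, the invariant chain of class II molecules, stands in the B cell list too and had −0.27 ± 0.66 and −0.19 ± 0.56 by its probes. Tapbp (tapasin), which loads peptides onto class I molecules, had −1.39, −1.45, −0.94 and −0.65 in mouse 1, 2, 3 and 5 (mean −1.11 ± 0.38, n = 4). It had a limma p of 0.00725. The proteasome subunit Psmb8 had −0.35 ± 0.45, H2-K1 −0.30 ± 0.50 and H2-Ab1 −0.23 ± 0.59. The list median was −0.68 in mouse 2 and −0.80 in mouse 4 but 0.25 in mouse 3, so the mice did not run together. Over probes the median was −0.37 without mouse 3, −0.078 without mouse 4 and −0.051 with the sign of the Cy5 arrays turned. Tapbp lay at 0.05 over the Cy5 arrays alone.

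T cell genes showed no common side, with 10 of 24 probes above 0 and a median of −0.02. The receptor chains Cd3g and Cd3d had −0.07 ± 0.50 and −0.05 ± 0.67, and Cd4 had 0.39 ± 0.82 (n = 4). Cd5, found on T cells and a subset of B cells, had 1.31, 2.06 and 1.53 in mouse 2, 4 and 5 (mean 1.63 ± 0.38, n = 3). Its limma p was 0.00399, with 6 of 10 arrays above 0. In C3H it had −0.12 ± 0.58 (n = 4). Plasma cell genes had 4 of 4 probes below 0, from −0.33 to −0.11, but their median of −0.24 was 0.024 without mouse 4, −0.45 without mouse 5, and 0.11 with the sign of the Cy5 arrays turned. Of the macrophage genes 9 of 21 probes lay above 0, among them Mrc1, the mannose receptor, with 0.59 ± 0.10 (n = 3). The 11 arrays of Mrc1 ran from −0.639 to 3.507. Vcam1 lay at −0.67 ± 0.36 (n = 4). Dendritic cell genes had 8 of 12 probes above 0, and NK cell genes 3 of 7.

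Neutrophil genes had 10 of 14 probes above 0, beside 48.7% of all tested probes, and a median of 0.37. It was 0.70 without mouse 5 and only 0.018 with the sign of the Cy5 arrays turned. Besides Mpo, the bacteriostatic protein Lcn2 had 0.08, 2.54, 2.68 and 0.83 in mouse 1, 3, 4 and 5 by probe 4468 (mean 1.53 ± 1.28, n = 4), while its other probe gave −0.29 ± 0.49 (n = 4). The limma p of probe 4468 was 0.019. S100a8, a calprotectin subunit, had 0.67 ± 0.66 (n = 4) and lay above 0 in 4 of 4 mice, lactoferrin (Ltf) had 1.11 ± 1.26 (n = 4) and the collagenase Mmp8 0.81 ± 0.96 (n = 4). Against this, Prtn3 had −0.35 ± 0.64 (n = 4) and Mmp9 0.44 ± 1.03 and −0.79 ± 0.54 (n = 3). The list median ranged from −0.41 in mouse 5 to 0.78 in mouse 4.

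Erythroid genes lay on both sides. Of 33 probes 12 lay above 0, with a median of −0.11, and alpha globin (Hba-a1) had −0.30 to −0.02 by 6 probes. The list median ran from −0.80 in mouse 1 to 0.66 in mouse 2, and the median over probes was 0.25 without mouse 1 and −0.29 without mouse 2. Ppox, an enzyme late in haem synthesis, had 1.54, 1.15 and 1.48 in mouse 2, 3 and 4 (mean 1.39 ± 0.21, n = 3) and 0.05 ± 0.37 in C3H. Its limma p was 0.00664. Genes of iron handling lay above 0 for 14 of 16 probes, beside 48.7% of all tested probes. Their median was 0.26, with a list median above 0 in 5 of 5 mice (0.03 to 0.27). Aco1, the iron regulatory protein 1, had 0.90 ± 0.58 (n = 4), and Ireb2, the iron regulatory protein 2, had 1.01 ± 0.74 (n = 3). The ferritin light chain Ftl1 had 0.24 ± 0.06 and the macrophage metal transporter Slc11a1 0.33 ± 0.24, both above 0 in 5 of 5 mice, and the ferritin heavy chain Fth1 had 0.06 to 0.10 by 3 probes. Without mouse 5 the median of the iron list was 0.04, and it was 0.001 with the sign of the Cy5 arrays turned.

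Cell cycle genes lay above 0 for 23 of 33 probes, beside 48.7% of all tested probes. Their median was 0.20, with a list median of 0.13 to 0.53 in the 5 mice. Cdc6, which loads the replicative helicase onto DNA, had 1.15, 0.13, 1.88, 1.67 and −0.20 by probe 3682 (mean 0.93 ± 0.92) and 0.93 ± 0.53 (n = 4) by probe 15636, with limma p of 0.0368 and 0.0226. The helicase subunits Mcm4 and Mcm6 had 0.37 ± 0.28 and 0.44 ± 0.29 (n = 4) and cyclin E1 (Ccne1) had 0.47 ± 0.47, all above 0 in every mouse measured. In C3H spleen the same Cdc6 probes had −0.32 ± 1.52 (n = 3) and −0.06 ± 0.38. The cell cycle median was 0.12 without mouse 2 and 0.07 with the sign of the Cy5 arrays turned.

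Cytosolic ribosomal proteins lay below 0 for 59 of 76 probes, with a median of −0.23, and 6 of their 56 probes with 5 mice were below 0 in every mouse, beside 3.08% of all such probes. The list median was −0.70 in mouse 4 and 0.07 in mouse 5. Rps24, Rps27 and Rps20, of the small subunit, had −0.46 ± 0.33, −0.47 ± 0.43 and −0.41 ± 0.41. In C3H spleen the same probes had means of −0.17, −0.27 and −0.31. Probes of one gene could oppose each other, as for Rps6 (−0.85 ± 1.002, n = 4, and 0.98 ± 0.53, n = 3). Subunits of the mitochondrial respiratory chain had 54 of 81 probes below 0 with a median of −0.05, ER chaperones 20 of 26 below with −0.09 and proteasome subunits 21 of 34 below with −0.10. With the sign of the Cy5 arrays turned, the ribosomal median was −0.01, and those of ER chaperones and the proteasome were 0.059 and 0.072. Without mouse 4 the medians were −0.14 for ribosomal proteins, 0.031 for the respiratory chain, 0.0056 for ER chaperones and −0.017 for the proteasome.

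**Figure D3:**
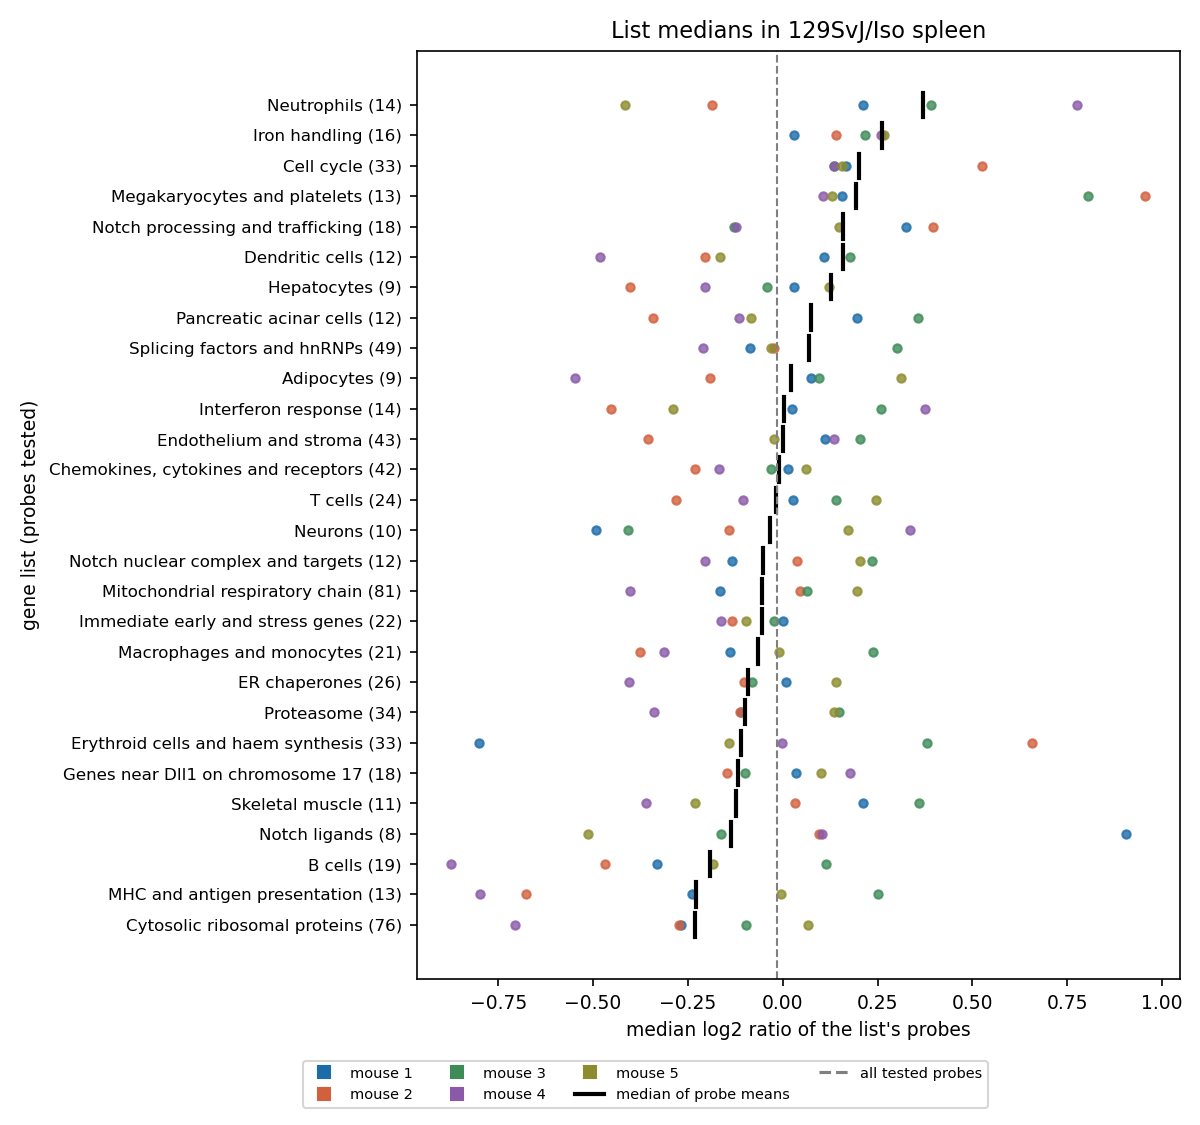
Median log2 ratio of heterozygous over wild-type spleen (x axis) for the 28 gene lists with at least 8 tested probes (y axis, number of probes in brackets), with a point per mouse, a bar for the median of the probe means and a dashed line for all tested probes. The mice of most lists lie on both sides of the dashed line, and mouse 4 is the lowest for many lists below 0, such as ribosomal proteins at −0.70.

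Markers of tissues that lie beside the spleen or could enter with it were near the background. Pancreatic acinar genes had 8 of 12 probes above 0 and a median of 0.08. The elastase Cela2a had 1.34, −0.55, 1.66 and 2.90 in mouse 1, 2, 3 and 5 (mean 1.34 ± 1.42, n = 4), while Spink1 had −0.86 ± 0.81 (n = 4) and lay below 0 in each. Adipocyte genes had 5 of 9 probes above 0, hepatocyte genes 6 of 9, skeletal muscle genes 4 of 11, neuronal genes 5 of 10 and endothelial and stromal genes 22 of 43. Their part in the ratios of the genes named above was not tested. Interferon response genes had 7 of 14 probes above 0, and among 42 probes of chemokines, cytokines and their receptors 20 lay above 0. Ccr2, a receptor that guides monocytes, had 0.99, 1.23, 0.89 and 1.13 in mouse 1 to 4 by probe 20271 (mean 1.06 ± 0.15, n = 4). Its other probe had 0.77 ± 1.69 (n = 4). Despite the narrow spread over mice, the 12 arrays of probe 20271 ran from −0.203 to 3.61. The stromal chemokine Cxcl12 had −1.19 ± 0.30, 1.13 ± 0.80 and −0.01 ± 0.44 (n = 4 each) by its probes, so no direction can be given for it. Immediate early genes had 14 of 22 probes below 0, with Jun at −1.53 ± 1.33 (n = 3), −1.02 ± 1.34 (n = 4) and −0.06 ± 0.18 (n = 3).

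The genes that the study lists for C3H liver and thymus, which it chose on other organs of the other strain, had 7 of 12 and 8 of 17 probes above 0 here, with medians of 0.12 and −0.07. The study reports lower expression in heterozygotes for every gene on both lists. On the other side from that, Cul2 had 1.03 ± 0.53 (n = 3) and Higd1b 1.17 ± 0.98 with 5 of 5 mice above 0. In C3H spleen Cul2 had 1.03 in 1 mouse and Higd1b 0.87 (n = 4). Cul2 lay at −0.63 with the sign of the Cy5 arrays turned.

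The test between strains, C3H minus 129SvJ/Iso in spleen, asked where the 2 backgrounds respond differently to the same allele. Strain, the wild-type pool of each strain, age and array quality run together in this contrast and cannot be told apart. Of 14031 probes with at least 3 mice in each strain 0 passed at an adjusted p under 0.05 (0%, smallest limma adjusted p = 0.541), and 986 had an unadjusted p under 0.05 (7.03%), of which 541 were higher in C3H (3.86%) and 445 lower (3.17%). With the sign of the Cy5 arrays turned in both strains 1409 probes had such a p. Aqp8, a water channel, had 1.82, 2.69 and 2.05 in 129SvJ/Iso mouse 1, 3 and 5 (mean 2.19 ± 0.45, n = 3) and −0.17 ± 0.37 in C3H, a difference of −2.36. Nt5c2, a nucleotidase, had 1.95 ± 0.52 (n = 3) and −0.08 ± 0.25 (n = 4) by probe 1461, while its probe 9576 had 0.49 ± 2.34 (n = 3) and 0.16 ± 0.31. Arpc4, a subunit of the actin-nucleating Arp2/3 complex, had 1.96 ± 1.06 (n = 3) and −0.22 ± 0.23, and Nudt4 1.69 ± 0.85 (n = 3) and −0.44 ± 0.47. Pf4 was the other gene named on this side by the rule. On the other side, Gng4, a G protein subunit, had −2.45, −1.20 and −3.09 in 129SvJ/Iso mouse 1, 3 and 4 (mean −2.25 ± 0.96, n = 3) and 0.56 ± 0.67 in C3H (n = 4). Ktn1 had −1.53 ± 0.52 (n = 3) by probe 20076 and 0.98 ± 0.32 (n = 3) by another probe. Ctla4, an inhibitory receptor of T cells, had −0.01 ± 0.26 in 129SvJ/Iso and 2.35 ± 0.65 (n = 3) in C3H, and Msto1 −0.28 ± 0.71 and 2.17 ± 0.59 (n = 3), so for both the ratio away from 0 was that of C3H. Slc1a1, a glutamate transporter, differed by 2.08 on one probe and by −1.31 on another.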

How the data were processed

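Spleen RNA of single heterozygous mice and a wild-type pool was labelled with Cy3 and Cy5 and hybridised together to cDNA arrays. The authors deposited 1 log2 ratio per probe and array. Their image and array software is named in the methods, but the normalization, scale and centring of the log2 values stay unknown from the sources at hand (not given in the sources used here). Array medians lay between −0.25 and 0.16. The authors' spot intensities were not used here.

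On each array the constant extreme value (size above 14, at the array constant ± log2 of 1e+05) was set to missing. For each mouse, the mean of its Cy3 arrays and the mean of its Cy5 arrays were averaged, and both were required. The exception was C3H spleen mouse 1, whose 1 array in Cy3 was used alone, so a dye effect does not cancel in its values. Probes with at least 3 mice were tested against 0 with limma 3.58.1 in R 4.3.3 (lmFit, eBayes, Benjamini-Hochberg, threshold 0.05, two-sided), and the strains in 1 fit over mice. Wild-type RNA was a single pooled control, and every p leaves out the spread of wild-type mice. The fit was tested on simulated data. How many mice and arrays there were limits the precision.

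Of the probes 12771 had 1 gene symbol, 0 several and 8023 none in the platform annotation. The text names Dll1, the 12 genes in each direction with the smallest p among probes with 5 mice, up to 4 members of each of 34 lists and the 5 genes in each direction of the strain test. Other list members, the genes with 14 or 15 arrays on one side and Chil3 were chosen after their values were seen. So were the organs shown for the platelet genes, Serinc3 and Gata1, and the genes for which the text gives C3H values outside the strain test. Members and lists were chosen with earlier results of these data known, and so was the rule for the extreme value. Alternatives covered centring, scaling, missing values, dye orientation, the fit and each mouse left out.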

Additional observations from a re-analysis of the deposited data

Results flagged for a closer look

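In 11 of 159 probes of named genes with 4 or 5 mice, 1 mouse lay far from the others by Dixon's test, and chance alone flags about 1 in 20 groups. Mouse 5 stood apart for Jun (probe 5767, −3.00 against −0.59 to −0.12), Dlk1 (probe 20288, −2.64 against −0.23 to −0.20), Slc11a2 (probe 2855, 1.85 against −0.41 to −0.12), Lcn2 (probe 1788, −1.02 against −0.12 to 0.04) and Tpm2 (probe 2646, 0.47 against −0.36 to −0.21). Mouse 3 did so for Elf4 (−1.26 against −0.67 to −0.51), Col4a1 (probe 8643, 0.70 against 0.16 to 0.24) and Srsf5 (probe 5818, 0.54 against −0.76 to −0.47). Mouse 4 was low for Psma2 (−1.65 against −0.24 to 0.01) and Scd1 (−1.55 against −0.35 to 0.12), and mouse 1 for Vcam1 (−1.21 against −0.53 to −0.43). None of the 4 platelet genes described at length was among them.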

How the results depend on the processing

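The count of probes with an unadjusted limma p under 0.05 was 747. Refitted, often on another set of probes, it was 472 with the extreme values kept, 291 among probes with all 5 mice, 1137 with the sign of the Cy5 arrays turned, 1194 on the Cy5 arrays alone, 360 with probes of a gene averaged, 401 among probes with at least 12 arrays, 0 with a variance trend on the size of the mean, and 532 to 654 without 1 mouse. At an adjusted p under 0.05 the count of 0 became 4 with all arrays and the mouse as a random block and 2 with trend and robust shrinkage, and it was 0 without any 1 mouse. For the strain difference the count was 986, against 208 in a fit of probes with all 5 mice of each strain, 1409 with the sign turned and 726 to 891 without 1 mouse. Probes with all mice on one side numbered 691 with the sign turned, against 422. The cause was not tested. The trend on the size of the mean takes the tested effect as its covariate, so its count of 0 cannot be compared with the others.

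With the sign of the Cy5 arrays turned, the direction reversed for Dll1 (0.96 and 0.48), Ppbp (−0.036), Adamts4 (0.62), Slc25a30 (0.71), Clec1b (−0.28), Lypd1 (−0.37), Mpo (−0.16), C4a (−0.24), Elf4 (0.44), Il17ra (0.084), Cd5 (−0.27), Ccr2 (−0.25), Rps19 (0.44), Dnajc3 (0.86), Fcrla (0.35), Aco1 (−0.34), Snrpa (−0.61), Cul2 (−0.63), Isg20 (0.018), Rps6 (−0.96) and Cela2a (−0.12). Cy3 arrays alone reversed Dll1 (0.50 and 0.43), Snrpa (−0.59) and Rps6 (−0.27), and Cy5 arrays alone Tapbp (0.051) and Jun (0.080). Scaling reversed Dll1 probe 20289 (0.0034), averaging probes Cxcl12 (0.056) and Rps6 (−0.0115), keeping extreme values Aco1 (−0.15), and a value on any array Snrpa (−0.22).

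Medians moved with the sign turned for genes near Dll1 (0.064), iron handling (0.00098), chemokines (−0.15) and the study's C3H liver list (−0.30), and over probes with all 5 mice for genes near Dll1 (0.10), dendritic cells (−0.16), iron handling (0.11) and hepatocytes (−0.24). Without 1 mouse they ran from 0.17 to 0.44 for Notch processing (0.44 without mouse 3), 0.039 to 0.28 for iron handling (0.039 without mouse 5), −0.035 to 0.80 for platelets (0.80 without mouse 1) and −0.15 to −0.034 for immediate early genes (−0.14 without mouse 1, −0.15 without mouse 3). The 874 other values of single genes kept their direction and side of the threshold. The 326 other counts and medians stayed within 1.5 times the count or within 1 SD of the mouse medians, which let some medians near 0 change sign. Leaving out ratios of small whole numbers, leaving out the 4 arrays richest in them, the minimum of 12 arrays, the trend on the mean and the number of arrays as covariate of the planned trend (the fit with 2 calls) were chosen after seeing the data. No paired analysis was possible because the main test has 1 group, the strains' mice are different animals and the replicate numbers in the labels count arrays. Adjusted p over the alternatives ran from 0.000155 to 0.969 for Ppbp, 0.00333 to 0.964 for Pf4 and 0.00653 to 0.964 for Itga2b.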
